A study of Mus musculus with 12 samples.

Results

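Imprinted genes are genes of which mainly the copy from 1 parent is expressed. The 43 described here were listed by name, and rows of those symbols were taken from gene counts of 12 RNA libraries that hold 24015 gene rows in all. Each of the 43 had a row. By what is known in mouse, 24 are paternally expressed, 18 maternally expressed and 1, Gnas, has an expressed copy that depends on the isoform. Whether each gene keeps to that copy in the cells used here was not measured. The 43 fall into 12 clusters of 2 or more members, which hold 35 genes, and 8 genes listed alone. Airn and Kcnk9 had too few counts to be tested (at most 1 read in any library), which left 41.

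The libraries came from embryoid bodies, aggregates in which mouse embryonic stem cells begin to differentiate. Control bodies and Trim33-deficient bodies were collected 2 and 2.5 days into differentiation, with 3 libraries for each of the 4 groups. The stem cell lines, of an outbred strain, were derived from embryos with a Trim33-flox allele on both chromosomes and a UbcCreERT2 transgene, in which the ubiquitin C promoter drives a tamoxifen-dependent Cre recombinase. They were kept in LIF and 2i with no feeder cells. Deletion was started with 4OH-Tamoxifen on day 1. The control libraries carry the genotype label wildtype although the growth protocol describes every line as floxed, and nothing used here says whether the controls were given tamoxifen. Pairs described as independent are mentioned in the labels, which do not say how separate the cultures were, so the p-values reflect how much these libraries vary, which may be technical. Bodies hold several kinds of cell, and in such bulk samples fewer cells of a type cannot be told apart from less RNA per cell. The counts do not separate the parental copies either, so a higher level can come from either copy.

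Imprints are methylation marks that the egg or the sperm places on control regions and that the embryo then keeps while the rest of its DNA is reprogrammed. The zinc-finger protein ZFP57 binds the letters TGCCGC when they are methylated and brings TRIM28, a relative of TRIM33, to the marked copy. Many imprinted genes act on growth of the fetus and placenta, and paternally expressed ones such as Igf2 often promote it while maternally expressed ones such as Igf2r or Phlda2 restrain it. Embryonic stem cells are known to lose or gain imprints in culture, in a way that can differ from line to line.

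Promoter sequences are shown for 5 genes that moved, since the letters bound by ZFP57 lie in some of them and not in others. They are RefSeq windows on GRCm38.p6 from 250 bases before to 50 bases after the gene's start, whereas the reads were aligned to mm9, so no coordinate comes from the count files. Capitals mark GCGGCA, the reverse complement of TGCCGC, in Plagl1 (chr10:13090582-13090881, plus strand), Nnat (chr2:157559828-157560127, plus strand), Meg3 (chr12:109540746-109541045, plus strand) and Mest (chr6:30737800-30738099, plus strand). In the window of Peg3 (chr7:6730370-6730669, minus strand) neither orientation of the motif occurs, and capitals mark its 13 CpG pairs. The windows were not chosen as the control regions that carry imprints, and the motif was not looked for outside the windows.
Plagl1: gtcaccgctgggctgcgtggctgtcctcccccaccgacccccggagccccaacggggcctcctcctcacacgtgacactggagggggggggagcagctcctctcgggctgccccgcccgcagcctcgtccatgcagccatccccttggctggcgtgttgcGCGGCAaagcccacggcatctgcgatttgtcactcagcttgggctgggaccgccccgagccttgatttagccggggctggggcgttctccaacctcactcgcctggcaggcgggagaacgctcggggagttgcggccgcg
Nnat: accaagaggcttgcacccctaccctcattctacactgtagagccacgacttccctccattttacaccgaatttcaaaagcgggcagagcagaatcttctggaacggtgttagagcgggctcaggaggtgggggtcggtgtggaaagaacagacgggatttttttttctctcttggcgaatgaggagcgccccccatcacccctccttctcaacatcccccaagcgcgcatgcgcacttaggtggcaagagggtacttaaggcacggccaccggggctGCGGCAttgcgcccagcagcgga
Meg3: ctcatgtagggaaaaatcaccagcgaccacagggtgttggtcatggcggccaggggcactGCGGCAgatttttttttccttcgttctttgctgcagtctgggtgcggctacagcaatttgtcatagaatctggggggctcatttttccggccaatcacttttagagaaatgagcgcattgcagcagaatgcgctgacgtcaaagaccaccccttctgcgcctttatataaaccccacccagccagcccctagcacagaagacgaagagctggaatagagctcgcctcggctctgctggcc
Mest: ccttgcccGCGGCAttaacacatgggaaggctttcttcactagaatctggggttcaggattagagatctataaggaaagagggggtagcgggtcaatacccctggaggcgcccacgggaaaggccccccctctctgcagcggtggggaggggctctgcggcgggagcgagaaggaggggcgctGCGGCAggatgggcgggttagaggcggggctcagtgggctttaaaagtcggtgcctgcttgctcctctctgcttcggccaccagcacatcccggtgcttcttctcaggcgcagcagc
Peg3: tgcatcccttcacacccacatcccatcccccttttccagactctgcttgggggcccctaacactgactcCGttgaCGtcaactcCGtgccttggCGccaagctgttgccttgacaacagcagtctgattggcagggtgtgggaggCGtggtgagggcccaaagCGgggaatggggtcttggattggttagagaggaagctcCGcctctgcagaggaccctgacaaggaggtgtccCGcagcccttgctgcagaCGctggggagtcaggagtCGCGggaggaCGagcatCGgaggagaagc

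Of the 43 members 36 had a full window, with 53 windows in all. Impact, H19, Peg10, Sgce, Nespas, Kcnk9 and Trappc9 had none here, so the motif was not looked for in them. The chromosome that holds Impact was left out for members and other genes alike. The motif, counted on both strands, occurred in 14 of these windows (26.4%) and in 13 genes (36.1%), against 11.6% of 32798 windows and 13% of 26989 genes elsewhere. The windows of the members also held more CpG pairs, with a median of 16 against 7 (the motif itself holds a CpG), and the part of this in its share was not tested. Of the genes with a window that passed on day 2.5, the motif was carried by Plagl1, Meg3, Mest, Igf2 and Zdbf2, which rose. Nnat and Commd1, which fell, carried it as well. So did Copg2, Grb10, Mcts2, Nap1l5, Snrpn and Zim1, which did not pass that day. Peg3, Peg12, Rian, Mirg, Igf2r, Cd81, Gab1 and Zrsr1, which rose, and Dlk1, Phlda2, Gnas and Inpp5f, which fell, did not carry it. Igf2, Meg3, Mest, Commd1, Zdbf2, Grb10 and Snrpn held it in only some of their windows. For Meg3 and Mest the window shown above is one that held it. A link between the motif and passing was not tested. The windows of Peg3 and Usp29 share 263 bases, since the genes start 164 bases apart on opposite strands.

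Libraries held 10066338 to 16529627 counts assigned to genes. Each Trim33-deficient library had few Trim33 reads, with 570 to 1113 reads on day 2 against 3379 to 3521 in control, and 748 to 1055 on day 2.5 against 2778 to 4020, a fall of 2.03 ± 0.06 and 2.10 ± 0.06 on the log2 scale (edgeR adjusted p = 1e-11 and 6.35e-12). A set of 3 libraries stood apart. In 10 libraries the ribosomal RNA precursor Rn45s made up 0.609 to 1.67% of counts, but replicate 1 of the day 2 Trim33-deficient group held 7.87% and replicate 2 of the day 2.5 controls 11.95%. That last library and replicate 2 of the day 2 controls were also high in 10 hypoxia and glycolysis genes, by 0.34 and 0.63 (log2) relative to the average library, where the rest lay between -0.37 and 0.14. Levels below are CPM, counts scaled by TMM to a common library size, given for replicates 1, 2 and 3 in that order.

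On day 2.5, more imprinted genes were higher than lower in bodies without Trim33. Of 41 tested, 16 rose (39.0%), 6 fell (14.6%) and 19 did not pass, and the median log2 fold change was 0.19. Plagl1, H19 and Peg10 more than doubled, and the non-coding RNAs Meg3, Rian and Mirg rose while their neighbour Dlk1 fell. Over all 14356 genes tested that day 22.0% rose and 20.7% fell, with a median of -0.01. By the copy listed as expressed, 10 of 23 paternally and 6 of 17 maternally expressed genes rose, and 3 and 2 fell. A gene passed at a Benjamini-Hochberg adjusted p under 0.05 in edgeR's quasi-likelihood test over all genes.

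**Figure D1:**
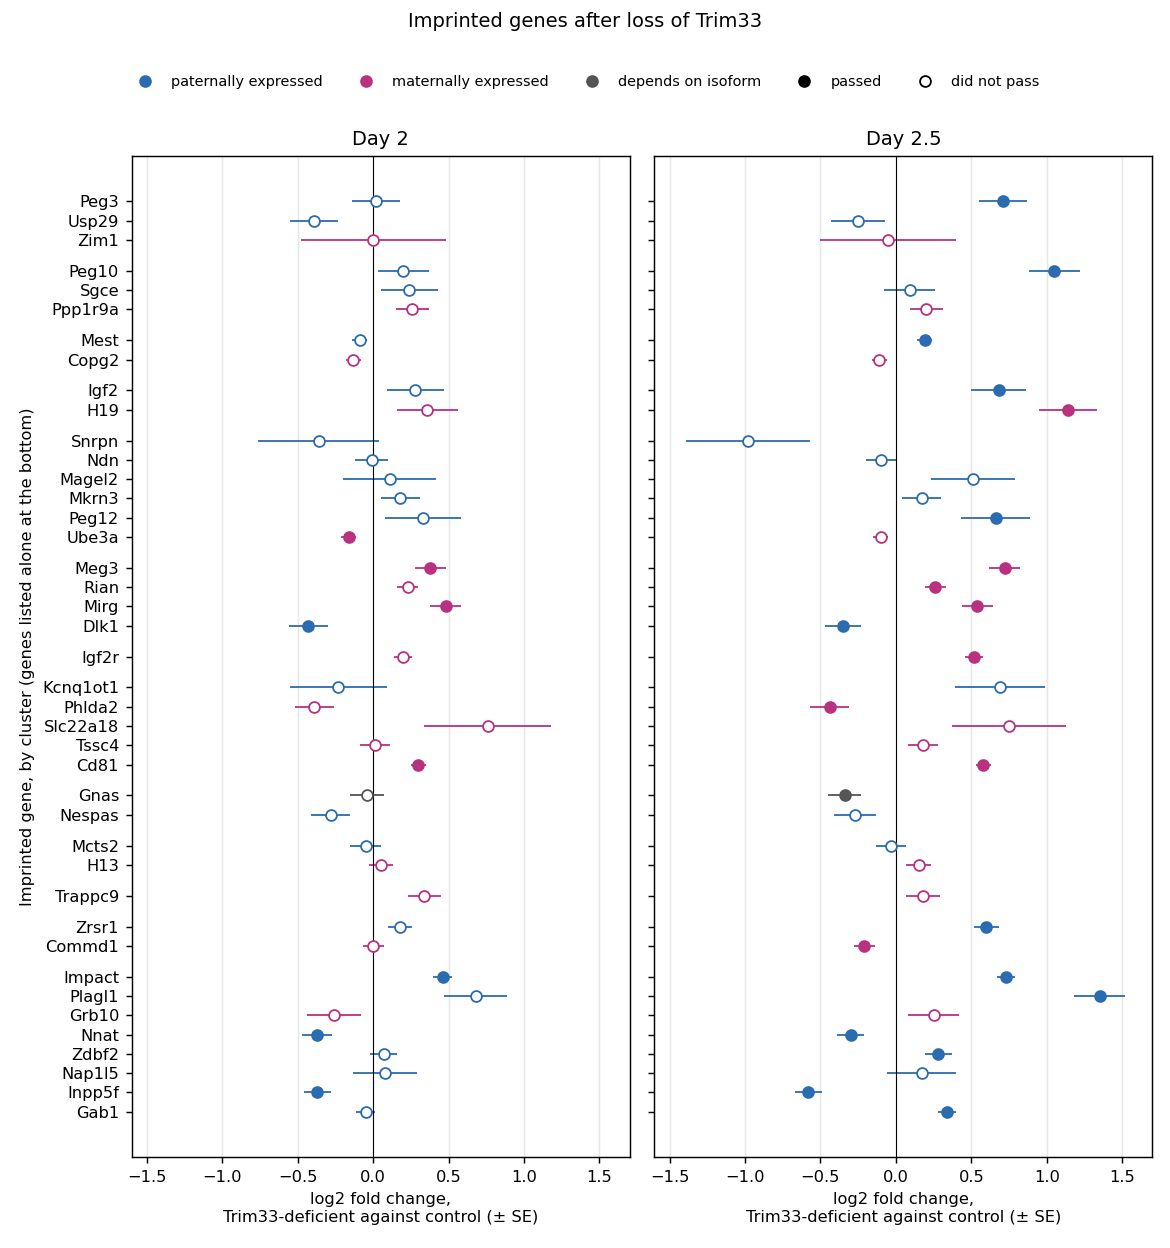
Log2 fold change of Trim33-deficient against control bodies (x axis, with its SE as bars) for the 41 imprinted genes tested, grouped by cluster on the y axis, on day 2 and day 2.5. Filled points passed the test and open points did not. On day 2.5, 16 filled points lie to the right of 0 and 6 to the left.

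On day 2, 4 members rose (9.76%), namely Impact, Meg3, Mirg and Cd81, and 4 fell (9.76%), namely Ube3a, Dlk1, Nnat and Inpp5f. The median log2 fold change was 0.05, and over all genes 5.94% rose and 3.9% fell. All of them but Ube3a also passed on day 2.5 with the same sign. In all, 23 members passed on at least 1 day and 18 on neither, and no gene passed in opposite directions.

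Markers of other cell types moved with genotype on day 2.5, though not all members of a list moved alike. The 4 pluripotency markers summed to 1040 to 1150 CPM in control and 1230 to 1260 CPM in Trim33-deficient libraries, where Zfp42, Dppa5a and Sox2 rose and Pou5f1 did not pass. The 4 epiblast markers went from 3420 to 4040 CPM down to 2060 to 2650 CPM (Dnmt3b, Fgf5 and Otx2 fell, Pou3f1 did not pass). Primitive streak markers, 4 genes, went from 35.3 to 46.4 CPM down to 15.2 to 22.4 CPM, and T, Fgf8 and Eomes fell.

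The sum of 6 trophoblast markers was 24.6 to 34.3 CPM in control and 35.5 to 42.3 CPM without Trim33, but its members went opposite ways. Tfap2c rose from a mean of 4.87 to 20.8 CPM, Gata3 and Hand1 also rose, and Eomes, shared with the streak list, fell from 22.1 to 11.1 CPM. Cdx2 did not pass, and Elf5 was under 1 CPM in every library. Primitive endoderm markers, 6 genes, summed to 7.35 to 8.44 and 8.93 to 9.75 CPM. Gata4, which made up most of the sum, did not pass (means of 6.98 and 6.84 CPM). Gata6 and Sox17 rose at a low level, from means of 0.498 and 0.283 to 1.16 and 1.02 CPM. Afp, Sox7 and Ttr were under 1 CPM throughout. Fibroblast markers (7 genes, Lum and Postn under 1 CPM) summed to 35.0 to 43.9 and 22.5 to 25.5 CPM, as Col1a1, Col1a2 and Thy1 fell and Col3a1 rose. The 4 germ cell markers summed to 76.8 to 78.5 and 81.2 to 99.1 CPM (Dazl and Prdm1 rose). Of 6 sex-linked genes Xist and Tsix rose, the sum going from 13.2 to 15.3 up to 27.9 to 30.9 CPM, and the 4 on the Y chromosome were under 1 CPM. The sums of neuroectoderm, blood and muscle markers overlapped between genotypes, though Zic1 of the neuroectoderm list rose and Actc1 of the muscle list fell. The part these cells had in the results on imprinted genes was not tested.

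The Igf2-H19 cluster on chromosome 7 was higher without Trim33 on day 2.5. H19, a maternally expressed non-coding RNA, stood at 76.8, 93.5 and 58.1 CPM in control and at 149, 154 and 198 CPM in Trim33-deficient bodies. Every Trim33-deficient library lay above every control library, a rise of 2.21-fold (log2 1.14 ± 0.19 SE, edgeR adjusted p = 0.00113, n = 3 each). Igf2, the paternally expressed fetal growth factor, stood at 7.68, 6.04 and 7.18 CPM in control and at 10.6, 11.6 and 11.5 CPM without Trim33, again with no overlap (log2 0.68 ± 0.18, edgeR adjusted p = 0.0059). Neighbours with opposite expressed copies thus both rose. On day 2 H19 stood at 56.3, 68.7 and 52.3 against 91.2, 74.4 and 64.2 CPM, and Igf2 at 6.97, 5.10 and 5.98 against 10.1, 7.0 and 5.41 CPM. The groups overlapped for both genes, and neither passed. Exons of Igf2 overlap those of the antisense gene Igf2os, and reads of the pair cannot be told apart without strand.

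Of the genes that limit IGF signalling, Igf2r rose and Grb10 did not pass between genotypes. Igf2r, the maternally expressed receptor that clears IGF2, stood on day 2.5 at 168, 177 and 155 CPM in control and at 256, 236 and 227 CPM without Trim33 (log2 0.52 ± 0.06, edgeR adjusted p = 1.38e-05). The day 2 levels were 172, 172 and 164 against 209, 179 and 196 CPM, and the difference missed the threshold (log2 0.20 ± 0.06, edgeR adjusted p = 0.0625). The groups did not overlap on either day. Airn, the paternally expressed antisense RNA that silences Igf2r on the paternal copy in mouse, had at most 1 read per library, at or under the floor of 3 reads. Grb10, an adaptor that dampens insulin and IGF receptors, differed by 0.25 ± 0.17 on the log2 scale on day 2.5 (edgeR adjusted p = 0.24).

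Plagl1, a paternally expressed zinc-finger transcription factor reported in mouse to act on other imprinted genes, had the largest log2 fold change among members that passed. On day 2.5 it stood at 15.1, 13.1 and 11.9 CPM in control and at 39.6, 37.6 and 25.2 CPM without Trim33, 2.55-fold higher (log2 1.35 ± 0.17, edgeR adjusted p = 4.48e-05). Its lowest Trim33-deficient library, replicate 3, still lay above every control. On day 2 the levels were 9.29, 5.65 and 7.40 against 11, 11.6 and 13 CPM. These groups did not overlap, but the difference missed the threshold (log2 0.68 ± 0.21, edgeR adjusted p = 0.0511).

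**Figure D2:**
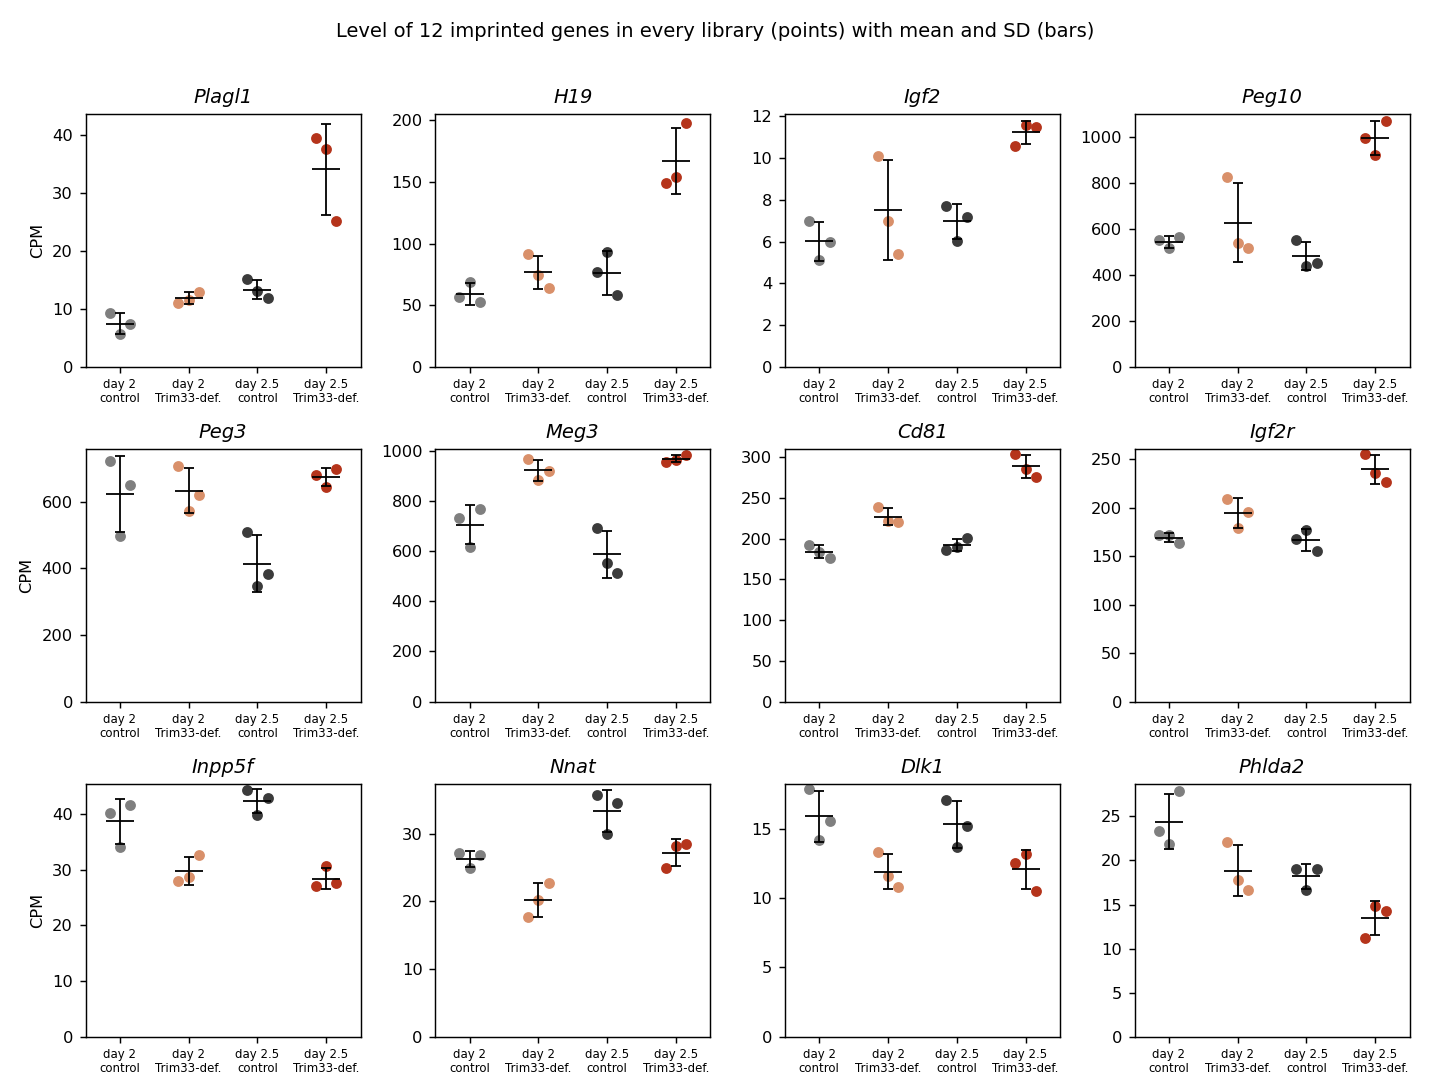
Level of 12 imprinted genes (y axis, CPM, from 0) in each library (points) of the 4 groups on the x axis, with the mean and SD of each group (n = 3) as bars. Plagl1, H19, Peg10 and Igf2 are highest in day 2.5 Trim33-deficient bodies, whereas Inpp5f, Nnat, Dlk1 and Phlda2 are lower there than in day 2.5 control.

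In the Dlk1-Meg3 cluster on chromosome 12, the maternally expressed non-coding RNAs Meg3, Rian and Mirg rose on day 2.5 and the paternally expressed Dlk1 fell. The rows of the other paternally expressed genes there, Rtl1 and Dio3, which are not among the 43, did not follow Dlk1 and rose. The log2 fold changes were 0.85 ± 0.14 and 1.61 ± 0.37 (edgeR adjusted p = 0.000158 and 0.00262), Dio3 at under 2 CPM. Rtl1 lies antisense to microRNA genes, and without strand its row may hold reads of the opposite strand. Dio3 entered the test through the day 2.5 Trim33-deficient libraries, so its rise was favoured by the filter on low counts. Meg3 stood on day 2.5 at 693, 554 and 513 CPM in control and at 955, 963 and 983 CPM without Trim33 (log2 0.72 ± 0.10, edgeR adjusted p = 0.000106). Its day 2 values were 731, 618 and 767 against 965, 881 and 918 CPM (log2 0.38 ± 0.10, edgeR adjusted p = 0.0293). Its groups did not overlap on either day. The day 2 call ended without day 2 control replicate 1 or 2 or without any day 2 Trim33-deficient library (edgeR adjusted p 0.0517 to 0.114), with no filter (0.0533) and without both libraries rich in Rn45s (0.137), and without the 3 libraries that stood apart the change was 0.27 (edgeR adjusted p = 0.266).

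Mirg, which hosts many microRNAs, stood at 83.3, 62.9 and 66.2 CPM in control and at 99.0, 107 and 105 CPM without Trim33 on day 2.5 (log2 0.54 ± 0.10, edgeR adjusted p = 0.000684). On day 2 the values were 76.2, 63.5 and 82.2 against 106, 98.2 and 105 CPM (log2 0.48 ± 0.10, edgeR adjusted p = 0.012, and 0.0507 without day 2 Trim33-deficient replicate 1). Rian, which hosts small nucleolar RNAs, stood at 830, 682 and 774 against 920, 934 and 879 CPM on day 2.5 (log2 0.26 ± 0.07, edgeR adjusted p = 0.0115). On day 2 Rian stood at 781, 642 and 775 against 851, 870 and 854 CPM and did not pass (log2 0.23 ± 0.07, edgeR adjusted p = 0.0665). In each of these comparisons all Trim33-deficient libraries lay above all controls. Reads of the small RNAs inside Meg3, Rian and Mirg may have been counted to either row or to neither.

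Dlk1, a transmembrane protein related to Notch ligands, stood at 17.9, 14.2 and 15.6 CPM in control and at 13.3, 11.6 and 10.8 CPM without Trim33 on day 2 (log2 -0.43 ± 0.13, edgeR adjusted p = 0.0422). On day 2.5 it stood at 17.1, 13.7 and 15.2 against 12.5, 13.2 and 10.5 CPM (log2 -0.35 ± 0.12, edgeR adjusted p = 0.0312). The groups lay apart on both days by a small gap. On day 2.5 the call ended without replicate 1 or 3 of either group (edgeR adjusted p 0.0552 to 0.141). For day 2 it held among the fits that left out 1 library only without replicate 2 of the day 2 controls, replicate 1 or 2 of the day 2.5 controls, or replicate 3 of the day 2.5 Trim33-deficient group, and otherwise gave an edgeR adjusted p of 0.0549 to 0.156. With only the libraries compared it was 0.0613.

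Peg10 on chromosome 6 and Peg3 on chromosome 7, both paternally expressed, rose on day 2.5, while neighbours of each did not pass. Peg10, a retrotransposon-derived gene that the mouse placenta needs, stood at 553, 440 and 454 CPM in control and at 996, 924 and 1070 CPM without Trim33, a 2.07-fold difference (log2 1.05 ± 0.17, edgeR adjusted p = 0.000766). Day 2 values were 554, 516 and 567 against 828, 541 and 516 CPM, with 1 high library, replicate 1, the one rich in Rn45s. Its neighbours Sgce, which encodes epsilon-sarcoglycan, and Ppp1r9a, which encodes the actin-binding protein neurabin, did not pass, at 0.09 ± 0.17 and 0.20 ± 0.11 on the log2 scale on day 2.5.

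Peg3, a zinc-finger protein, stood at 510, 347 and 384 CPM in control and at 682, 644 and 698 CPM without Trim33 on day 2.5, with no overlap (log2 0.71 ± 0.16, edgeR adjusted p = 0.00623). On day 2 the groups overlapped, at 724, 498 and 650 against 707, 573 and 620 CPM. Usp29, a deubiquitinase gene that shares the promoter region with Peg3, did not follow it and stood at 7.42, 7.91 and 8.37 against 6.98, 6.0 and 6.96 CPM on day 2.5 (log2 -0.25 ± 0.18, edgeR adjusted p = 0.275). Exons of Usp29 overlap those of Zim3 on the opposite strand, and reads of the pair cannot be told apart without strand. Zim1, the maternally expressed neighbour, lay at about 1 CPM.

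Mest, which encodes an enzyme of the alpha/beta hydrolase family, changed little but evenly, from 455, 435 and 451 CPM in control to 499, 501 and 530 CPM without Trim33 on day 2.5 (log2 0.19 ± 0.05, edgeR adjusted p = 0.00504). On day 2 it stood at 447, 408 and 457 against 418, 403 and 408 CPM, where the groups overlapped. Copg2, which lies tail to tail with Mest on the opposite strand and encodes a coat protein of transport vesicles, stood at -0.11 ± 0.05 on day 2.5 and did not pass.

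In the Kcnq1ot1 domain, also on chromosome 7, Cd81 rose and Phlda2 fell, both maternally expressed. Cd81, a tetraspanin of the cell surface, stood on day 2 at 192, 184 and 176 CPM in control and at 239, 222 and 220 CPM without Trim33 (log2 0.30 ± 0.05, edgeR adjusted p = 0.00318). On day 2.5 it stood at 186, 190 and 201 against 304, 286 and 276 CPM (log2 0.58 ± 0.05, edgeR adjusted p = 9.54e-07). The groups lay clearly apart on both days. Exons of Cd81 overlap R74862 on the opposite strand.

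Phlda2, which restrains growth of the mouse placenta, stood on day 2.5 at 19, 16.6 and 19 CPM in control and at 11.2, 14.8 and 14.3 CPM without Trim33 (log2 -0.44 ± 0.13, edgeR adjusted p = 0.0125). The call ended without replicate 3 of that day's controls or replicate 1 of its Trim33-deficient group (edgeR adjusted p 0.0506 to 0.0723). On day 2 it stood at 23.4, 21.9 and 27.9 against 22.1, 17.8 and 16.6 CPM, where 1 Trim33-deficient library lay within the control range. Kcnq1ot1, the paternally expressed antisense RNA that silences the domain, varied widely, at 4.33, 7.73 and 3.59 against 8.87, 6.22 and 9.34 CPM on day 2.5, and did not pass (log2 0.69 ± 0.30, edgeR adjusted p = 0.0856). The transporter gene Slc22a18 and Tssc4 did not pass on either day.

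Of the 6 genes around Snrpn and Ube3a on chromosome 7, whose human counterparts lie in the Prader-Willi and Angelman region, 1 passed on each day. On day 2, 1 fell (16.7%, against 3.9% of all genes) and none rose (against 5.94%). On day 2.5, 1 rose (16.7%, against 22.0%) and none fell (against 20.7%). Peg12, a protein related to the GSK3-binding FRAT proteins, was low, at 1.58, 1.42 and 1.95 CPM in control and 3.06, 2.85 and 2.08 CPM without Trim33 on day 2.5 (log2 0.66 ± 0.23, edgeR adjusted p = 0.0307). Its groups nearly met, and the call ended without replicate 1 or 2 of either group of that day (edgeR adjusted p 0.0805 to 0.114), without both libraries rich in Rn45s (0.0949), without the 3 that stood apart (0.0834) and by DESeq2 (adjusted p = 0.0809). On day 2 its levels were 1.36, 1.31 and 1.89 against 1.91, 1.69 and 2.15 CPM, and the groups overlapped.

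Ube3a, the ubiquitin ligase lost in Angelman syndrome, stood on day 2 at 173, 157 and 167 CPM in control and at 151, 148 and 147 CPM without Trim33 (log2 -0.16 ± 0.05, edgeR adjusted p = 0.0441). On day 2.5 it stood at 163, 153 and 156 against 147, 149 and 145 CPM and did not pass, although the groups lay apart on both days. The day 2 call held among the fits that left out 1 library only without day 2 control replicate 2 or day 2.5 control replicate 1 or 2, and otherwise gave an edgeR adjusted p of 0.0517 to 0.148. It also ended without both libraries rich in Rn45s, with only the libraries compared, with no filter and without ribosomal rows (0.0512 to 0.0927). The paternally expressed Ndn, Magel2 and Mkrn3 did not pass on either day. Snrpn had 3 to 18 reads per library, and since its exons are shared with Snurf these counts cannot be read as its level.

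Among genes listed alone, Impact rose and Inpp5f and Nnat fell on both days. Impact, a paternally expressed inhibitor of the stress kinase GCN2, stood on day 2 at 329, 321 and 319 CPM in control and at 447, 433 and 453 CPM without Trim33 (log2 0.46 ± 0.06, edgeR adjusted p = 0.00035). On day 2.5 the levels were 347, 349 and 336 against 630, 581 and 508 CPM (log2 0.73 ± 0.06, edgeR adjusted p = 3.84e-07). The groups lay far apart on both days.

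Inpp5f, a phosphoinositide phosphatase, stood at 44.3, 39.9 and 42.8 CPM in control and at 27, 30.6 and 27.6 CPM without Trim33 on day 2.5 (log2 -0.58 ± 0.09, edgeR adjusted p = 0.000102). Earlier, on day 2, it stood at 40.2, 34.1 and 41.7 against 28.0, 28.6 and 32.7 CPM (log2 -0.37 ± 0.09, edgeR adjusted p = 0.0182). The day 2 call ended without replicate 1 or 3 of the controls or replicate 1 or 2 of the Trim33-deficient group of that day (edgeR adjusted p 0.055 to 0.0902) and without both libraries rich in Rn45s (0.0606). All control libraries lay above all Trim33-deficient ones on both days. The counts cover all transcripts of the gene, of which only some are known to be imprinted in mouse.

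Nnat, a small membrane protein of the endoplasmic reticulum, stood on day 2 at 27.1, 24.9 and 26.8 CPM in control and at 17.7, 20.2 and 22.7 CPM without Trim33 (log2 -0.37 ± 0.10, edgeR adjusted p = 0.0296). On day 2.5 it stood at 35.7, 29.9 and 34.6 against 24.9, 28.2 and 28.5 CPM (log2 -0.30 ± 0.09, edgeR adjusted p = 0.018). The groups did not overlap on either day. For day 2 the call ended without replicate 1 or 3 of the controls or 1 or 2 of the Trim33-deficient group (edgeR adjusted p 0.0802 to 0.122), without both libraries rich in Rn45s (0.0841) or with only the libraries compared (0.051), and for day 2.5 without control 1 or 3 or Trim33-deficient replicate 1 (0.0658 to 0.0888).

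The retrogene Zrsr1 rose and its host gene Commd1 fell on day 2.5, on chromosome 11. Zrsr1, a paternally expressed copy of a splicing factor gene, stood at 26.9, 22.6 and 26.8 CPM in control and at 40.2, 37.7 and 38.0 CPM without Trim33 (log2 0.60 ± 0.08, edgeR adjusted p = 2.88e-05). Commd1, a regulator of copper transport and NF-kappaB, stood at 48.2, 48.7 and 51.7 against 40.4, 44.4 and 43.2 CPM (log2 -0.21 ± 0.07, edgeR adjusted p = 0.0173). Neither pair of groups overlapped. The fall of Commd1 did not pass without replicate 3 of the day 2.5 controls or replicate 1 of the day 2.5 Trim33-deficient group (edgeR adjusted p 0.0755 to 0.0798). On day 2 Zrsr1 stood at 24.3, 27.1 and 25.7 against 30.2, 28.1 and 29.2 CPM and Commd1 at 42.3, 48.6 and 46.3 against 46.1, 46.4 and 44.5 CPM, and neither passed. Both lie on opposite strands with overlapping exons, and reads from retrogenes and their parent genes are uncertain.

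Gab1 and Zdbf2 rose and Gnas fell on day 2.5. Gab1, a docking protein of growth factor receptors, stood at 328, 299 and 311 CPM in control and at 398, 396 and 395 CPM without Trim33 (log2 0.34 ± 0.06, edgeR adjusted p = 0.000524). The day 2 libraries held 435, 371 and 433 against 435, 378 and 388 CPM, and the groups overlapped. Zdbf2, a zinc-finger gene, stood at 190, 161 and 163 against 212, 207 and 207 CPM on day 2.5, with no overlap (log2 0.28 ± 0.09, edgeR adjusted p = 0.0222). That call ended without replicate 2 or 3 of that day's controls or replicate 1 or 2 of its Trim33-deficient group (edgeR adjusted p 0.051 to 0.0895) and without both libraries rich in Rn45s (0.102). On day 2 Zdbf2 stood at 205, 152 and 172 against 188, 174 and 193 CPM.

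Gnas, which encodes the stimulatory G protein alpha subunit and several other products, stood on day 2.5 at 340, 433 and 352 CPM in control and at 283, 299 and 309 CPM without Trim33 (log2 -0.34 ± 0.11, edgeR adjusted p = 0.032). The highest library was control replicate 2, the one rich in Rn45s. Without both libraries rich in Rn45s the change was -0.22 (edgeR adjusted p = 0.123), and the call also ended without control 2, Trim33-deficient 1 or Trim33-deficient 2 of that day (0.0678 to 0.128) and with no filter (0.067). On day 2 it stood at 251, 331 and 254 against 253, 290 and 269 CPM. Gnas and its antisense neighbour Nespas overlap, and Nespas did not pass.

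The members that passed on neither day had log2 fold changes between -0.39 (Usp29) and 0.76 (Slc22a18) on day 2 and between -0.98 (Snrpn) and 0.75 (Slc22a18) on day 2.5. Snrpn, Slc22a18 and Zim1 had at most 24 reads in any library. Snrpn was lower in every day 2.5 Trim33-deficient library than in any control of that day but did not pass (edgeR adjusted p = 0.0675). Of these 18, Trappc9, a gene of vesicle transport, came nearest to the threshold, on day 2 (log2 0.34 ± 0.11, edgeR adjusted p = 0.0668) and stood at 0.18 ± 0.11 on day 2.5. The retrogene Mcts2 and its host H13, which encodes signal peptide peptidase, stood at -0.03 ± 0.10 and 0.15 ± 0.08 on the log2 scale on day 2.5, and the retrogene Nap1l5 at 0.17 ± 0.23. In all, 14 members (Copg2, H13, Kcnq1ot1, Magel2, Mcts2, Mkrn3, Nap1l5, Nespas, Ppp1r9a, Slc22a18, Snrpn, Trappc9, Tssc4 and Zim1) passed in none of the 5 comparisons.

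From day 2 to day 2.5, the imprinted genes moved in both directions in control bodies and mainly upward in Trim33-deficient bodies. In control 5 rose (12.2%) and 4 fell (9.76%), with a median of 0.03, where 8.2% and 7.91% of all genes rose and fell. In Trim33-deficient bodies 12 rose (29.3%) and 2 fell (4.88%), with a median of 0.10, where 9.09% and 6.93% of all genes did. The time comparisons share their day 2.5 and day 2 libraries with the comparisons of genotype.

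Plagl1 rose with time in both genotypes, by 0.84 ± 0.20 in control (edgeR adjusted p = 0.0128) and 1.51 ± 0.18 without Trim33 (edgeR adjusted p = 9e-05), on the log2 scale. The control value missed the threshold without day 2 control replicate 3 (0.0502) and without the 3 libraries that stood apart (0.151). H19 rose in Trim33-deficient bodies by 1.14 ± 0.19 (edgeR adjusted p = 0.00438), against 0.36 ± 0.20 in control (0.272). Grb10 stood at 44.8, 33.0 and 42.0 CPM on day 2 and 56.1, 35.1 and 52.5 CPM on day 2.5 in control, where the days overlapped. In Trim33-deficient bodies it went from 37.9, 27.6 and 35.2 to 58.8, 59.0 and 54.9 CPM, with no overlap (log2 0.79 ± 0.17, edgeR adjusted p = 0.0102).

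Peg10 and Igf2 also rose with time without Trim33, by 0.67 ± 0.17 and 0.63 ± 0.18 (edgeR adjusted p = 0.0238 and 0.0262). For Peg10 the call ended without replicate 2 or 3 of the day 2 or replicate 1 or 3 of the day 2.5 Trim33-deficient group (0.0616 to 0.0868) or with only the libraries compared (0.112), and for Igf2 without those or day 2.5 replicate 2 (0.059 to 0.148). Impact, Mest, Igf2r, Cd81 and Zrsr1 rose in Trim33-deficient bodies by 0.30 to 0.41 on the log2 scale.

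Ndn, which encodes the growth suppressor necdin, rose in both genotypes. It went from 21.4, 17.6 and 20.3 to 32.0, 24.6 and 29.4 CPM in control (log2 0.54 ± 0.10, edgeR adjusted p = 0.00224) and from 20.5, 19.3 and 19.4 to 27.4, 28.5 and 24.8 CPM without Trim33 (log2 0.45 ± 0.10, edgeR adjusted p = 0.00772). The days did not overlap in either genotype. Nnat rose in both as well, by 0.35 ± 0.10 (edgeR adjusted p = 0.0204) and 0.42 ± 0.10 (0.00933). In control that call ended without day 2 replicate 2 or 3 or day 2.5 replicate 1 or 3 (0.0502 to 0.0767).

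Usp29 fell in both genotypes, from 10.7, 15.1 and 13.6 to 7.42, 7.91 and 8.37 CPM in control (log2 -0.73 ± 0.17, edgeR adjusted p = 0.00744) and from 7.64, 12.6 and 9.40 to 6.98, 6.0 and 6.96 CPM without Trim33 (log2 -0.59 ± 0.17, edgeR adjusted p = 0.0277). The days did not overlap in either genotype. The second call ended without replicate 2 or 3 of the day 2 Trim33-deficient group or any library of the day 2.5 one (0.0522 to 0.201). The Usp29 row may hold reads of Zim3, whose exons overlap it on the opposite strand. Phlda2 fell by 0.42 ± 0.13 in control (edgeR adjusted p = 0.0333) and 0.47 ± 0.13 without Trim33 (0.0238). Leaving out day 2 control replicate 1 or 3 or day 2.5 control replicate 2 or 3 ended the first (0.0505 to 0.174), and leaving out replicate 1 or 2 of the Trim33-deficient group on day 2 or its replicate 1 on day 2.5 the second (0.0556 to 0.118). Both ended without both libraries rich in Rn45s (0.0669 and 0.0694).

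In control bodies Peg3 fell by 0.59 ± 0.16 (edgeR adjusted p = 0.0355) and Gab1 by 0.40 ± 0.06 (0.000747), against 0.09 ± 0.16 and -0.01 ± 0.06 without Trim33. The fall of Peg3 did not pass without replicate 1 or 3 of the day 2 controls, replicate 2 or 3 of the day 2.5 controls or replicate 1 of the day 2.5 Trim33-deficient group (0.0501 to 0.119). It also missed the threshold without both libraries rich in Rn45s (-0.48, edgeR adjusted p = 0.116), with only the libraries compared (0.0791) and with no filter (0.0721), and the days overlapped. Gnas rose in control by 0.43 ± 0.11 (edgeR adjusted p = 0.0255), but not without day 2 control replicate 1 or 3 or day 2.5 control replicate 2 (0.0745 to 0.0969), without both libraries rich in Rn45s (0.0741), with only the libraries compared (0.0704) or with no filter on low counts (0.056). Sgce went from 7.21, 11.1 and 6.92 to 10.9, 15.7 and 11.1 CPM in control, with overlap (log2 0.56 ± 0.18, edgeR adjusted p = 0.0458). Its call held among the fits that left out 1 library only without replicate 2 of the day 2 controls, replicate 1 of the day 2.5 controls or replicate 1 of the day 2 Trim33-deficient group, and otherwise gave an edgeR adjusted p of 0.052 to 0.193. It also ended without both libraries rich in Rn45s (0.154) and with only the libraries compared (0.133).

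**Figure D3:**
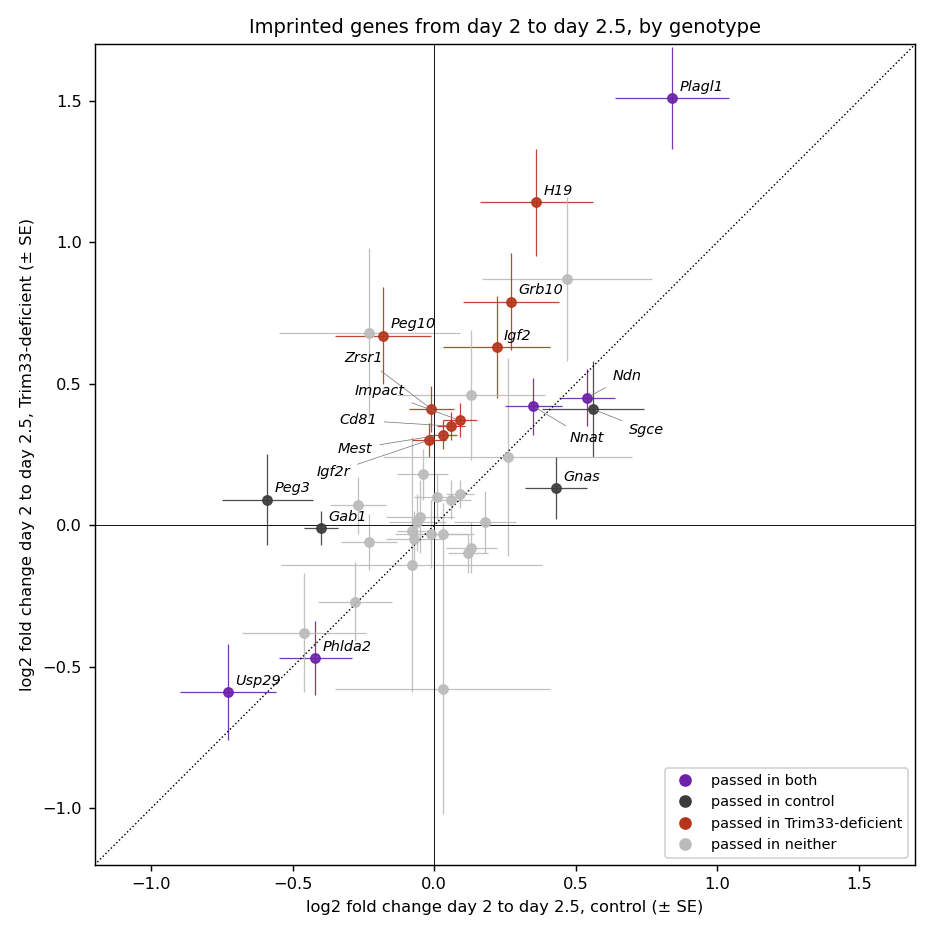
Log2 fold change from day 2 to day 2.5 in control (x axis) and in Trim33-deficient bodies (y axis) for the 41 imprinted genes tested, with SE as bars and the line of equal change dotted. Points are coloured by the genotype in which the gene passed, and H19, Grb10, Igf2 and Peg10 lie above the line.

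The log2 fold change between genotypes was higher on day 2.5 than on day 2 for 3 members by the test of the difference itself. None was lower by edgeR or DESeq2. Gab1 had an interaction of 0.39 ± 0.09 on the log2 scale (edgeR adjusted p = 0.0287), Mest of 0.28 ± 0.07 (0.032) and Cd81 of 0.28 ± 0.07 (0.0445). They make 7.32% of members, against 2.77% of all genes with a positive and 1.24% with a negative interaction. Each of the 3 calls ended in 8 or 9 of the 12 fits that left out 1 library. Zrsr1 and Igf2r stood just outside, at 0.42 ± 0.11 and 0.32 ± 0.09 (edgeR adjusted p = 0.0505 and 0.055), and H19 and Plagl1 did not pass (0.78 ± 0.28 and 0.66 ± 0.27, edgeR adjusted p = 0.152 and 0.178). A larger change on day 2.5 was thus not shown for most members.

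Imprinted genes outside the 43 also rose more often than they fell on day 2.5. Of 41 other symbols listed, 29 were tested, 13 rose (44.8%, against 22.0% of all genes) and 1 fell (3.45%, against 20.7%), with a median of 0.38. Of the 13, Th, Tnfrsf23 and Dio3 entered the test through the day 2.5 Trim33-deficient group (0.8 to 1.1, 0.774 to 0.951 and 1.31 to 1.54 CPM). In the other groups they reached at most 0.424, 0.369 and 1.2 CPM. Their rise was thus favoured by the filter on low counts and gives no support. On day 2, 2 rose (6.9%, against 5.94%) and 1 fell (3.45%, against 3.9%), shares near those of all genes. Ascl2, a transcription factor needed for the placenta, went from 4.86, 5.95 and 4.22 CPM in control to 18.4, 15.4 and 18.1 CPM without Trim33 on day 2.5 (log2 1.80 ± 0.22, edgeR adjusted p = 3.21e-05). Its neighbour in the Kcnq1ot1 domain, the tetraspanin gene Tspan32, stood at 0.656, 0.444 and 0.315 against 2.69, 2.85 and 2.44 CPM (log2 2.47 ± 0.32, edgeR adjusted p = 2.12e-05). Qpct, a glutaminyl cyclase gene, Jade1, a partner of histone acetyltransferases, and the amino acid transporter gene Slc38a4 rose by 1.52 ± 0.22, 0.96 ± 0.12 and 0.43 ± 0.07, and Rtl1, which lies antisense to microRNA genes between Dlk1 and Mirg, by 0.85 ± 0.14 (edgeR adjusted p = 6.53e-05, 9.15e-05, 0.000216 and 0.000158). Without strand, the Rtl1 row may hold reads of the opposite strand.

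Among 24 genes that set, keep or erase imprinted methylation, 8 rose (33.3%, against 22.0% of all genes) and 6 fell (25%, against 20.7%) on day 2.5, with a median of 0.00. On day 2, 1 rose (4.17%, against 5.94%) and 4 fell (16.7%, against 3.9%). Dppa3, which protects methylation in the early embryo, went from 7.74, 7.11 and 6.99 CPM in control to 15.2, 17.6 and 16.7 CPM without Trim33 (log2 1.18 ± 0.11, edgeR adjusted p = 1.53e-06). The demethylating dioxygenase gene Tet1 rose by 0.70 ± 0.10 and Arid4a, a chromatin protein, by 0.47 ± 0.07 (edgeR adjusted p = 0.000183 and 8.19e-05). Dnmt3b, a methyltransferase that is also among the epiblast markers, fell from 3450, 2820 and 3370 to 1640, 1880 and 2130 CPM (log2 -0.77 ± 0.10, edgeR adjusted p = 6.81e-05). Ctcf, the insulator protein that binds the unmethylated Igf2-H19 control region, stood at 309, 309 and 301 against 218, 228 and 242 CPM (log2 -0.42 ± 0.05, edgeR adjusted p = 6.17e-06), and Smchd1, a chromatin protein of the SMC family, fell by 0.37 ± 0.05 (6.35e-05).

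Zfp57, chosen after its values were seen, stood at 48.4, 38.5 and 39.2 CPM in control and at 110, 100 and 107 CPM without Trim33 on day 2.5 (log2 1.33 ± 0.18, edgeR adjusted p = 0.000213). On day 2 its groups overlapped and it did not pass. Trim28, Zfp445 and Dnmt1, also chosen so, did not pass on either day, with log2 fold changes on day 2.5 of 0.06 ± 0.08, -0.01 ± 0.07 and -0.07 ± 0.06.

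Several imprinted genes varied more between libraries of the same group than genes of like level did. For each member the SD of log2 CPM within groups was set beside the 500 tested genes nearest in mean level, as a description. H19 had an SD of 0.262, at the 99.8th percentile, Magel2 of 0.396 (99.0), Kcnq1ot1 of 0.464 (98.8), Peg10 of 0.218 (98.0) and Peg3 of 0.216 (97.8). Of 41 members 14 lay at or above the 90th percentile and 11 below the 50th, with a median percentile of 73.8, and 65.8 without the 3 libraries that stood apart. Mest, Copg2 and Ube3a, in contrast, varied less than the median of such genes.

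**Figure D4:**
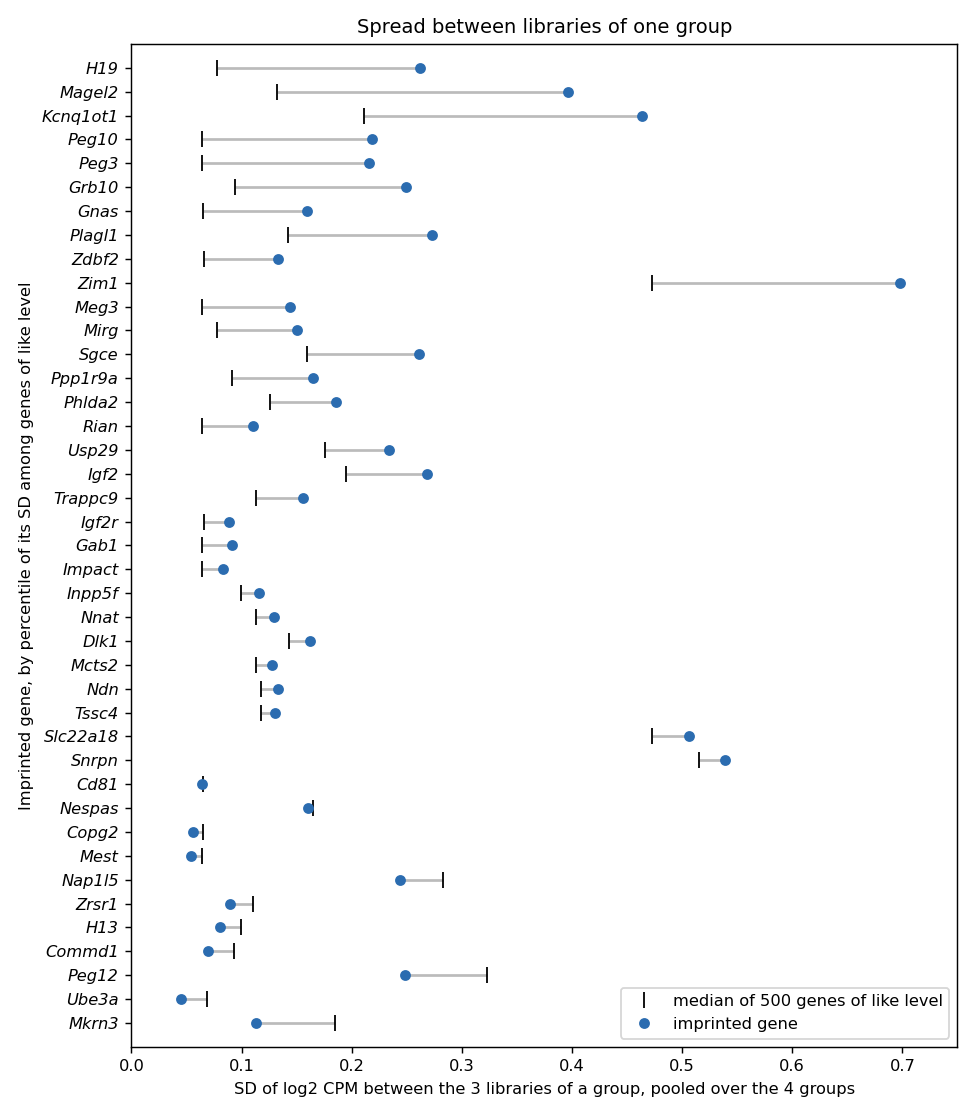
SD of log2 CPM between the 3 libraries of a group, pooled over the 4 groups (x axis), for each imprinted gene tested (points, y axis) and the median SD of the 500 genes nearest to it in level (ticks). Genes are ordered by the percentile of their SD, and H19, Magel2 and Kcnq1ot1 stand at the top.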

How the data were processed

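The authors deposited read counts per gene, 1 file for each of the 12 libraries, which per the submitters' processing notes rest on mm9 alignments; STAR, HTSeq and DESeq are the tools named there. Not given in the sources used here are versions, the annotation, strand and the handling of multiply mapped reads. The 5 rows at the end of each file hold totals and not genes and were dropped. Of the reads, 39.3 to 43.9% had been assigned to genes. In day 2.5 Trim33-deficient replicate 1, 27 gene names that had become dates were restored from the row order.

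Counts were tested with edgeR 4.0.16 (R 4.3.3). Genes were filtered with filterByExpr, libraries scaled by TMM, and means of the 4 groups fitted together by robust quasi-likelihood (8 residual degrees of freedom). Benjamini-Hochberg adjustment ran over all 14356 genes tested. The SE is the log2 fold change divided by the root of F. There were 5 comparisons, namely genotype on each day, time in each genotype, and the interaction. Library totals were 10066338 to 16529627, and the floor of 3 reads equals 0.179 to 0.318 CPM, for counting error only. Within-group spread used log2 CPM with a prior count of 0.5.

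The members, the lists of other imprinted genes, regulators and markers, and the tests were chosen with earlier results of these data known. Members that passed between genotypes or in the interaction, or over time by at least 0.5 on the log2 scale, are given by library, with the 6 genes of smallest adjusted p from each other list. Alternatives were other size factors, no filter, DESeq2 1.42.0, only the groups compared, a replicate block, leaving out each library or those that stood apart, and no ribosomal rows. Scripts were tested on simulated data. Promoter windows came from RefSeq (GRCm38.p6) and exon overlaps from GENCODE vM21.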

Additional observations from a re-analysis of the deposited data

Results flagged for a closer look

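The difference between Trim33-deficient and control bodies itself differed between day 2 and day 2.5 for 3 imprinted genes, by the interaction test across all genes (edgeR quasi-likelihood test, Benjamini-Hochberg adjustment). For Gab1 the log2 fold change was 0.39 higher on day 2.5, at -0.05 on day 2 and 0.34 on day 2.5. For Mest it was 0.28 higher, at -0.09 and 0.19, and for Cd81 0.28 higher, at 0.30 and 0.58. Over all alternatives run the interaction lay between 0.35 and 0.49 for Gab1, 0.25 and 0.33 for Mest, and 0.24 and 0.33 for Cd81. None of the 3 kept its call under every alternative. Among the fits that left out 1 library, Gab1 passed in 4 of 12 (the highest adjusted p was 0.0992), Mest in 3 (0.105) and Cd81 in 3 (0.134).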

How the results depend on the processing

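No imprinted gene that passed changed sign under any alternative, and 30 of 56 calls held under all of them: 2 of 8 on day 2, 15 of 22 on day 2.5, 3 of 9 over time in control, 10 of 14 over time without Trim33 and 0 of 3 interactions. The 15 of day 2.5 were Impact, Plagl1, Peg3, Peg10, Mest, Igf2, H19, Meg3, Rian, Mirg, Igf2r, Cd81, Inpp5f, Gab1 and Zrsr1. Leaving out each library in turn gave 2 to 7 genes that rose and 0 to 5 that fell on day 2 (4 and 4 with all), and 14 to 17 that rose and 1 to 6 that fell on day 2.5 (16 and 6). Over time it gave 1 to 5 and 2 to 5 in control (5 and 4), and 10 to 13 and 0 to 2 without Trim33 (12 and 2). For the interaction it gave 0 to 6 and 0 to 1 (3 and 0). With only the libraries compared, 1 fell on day 2 and 3 rose over time in control. Without both libraries rich in Rn45s, 2 fell on day 2, 2 fell over time in control, 1 fell over time without Trim33 and 6 had a positive interaction. Without the 3 libraries that stood apart, 8 fell on day 2, 7 had a positive and 1 a negative interaction. DESeq2 gave 6 genes with a positive interaction and 6 that rose on day 2. A fit of only the libraries compared has no separate value for the interaction, which uses all 12. The cause of these differences was not tested. The counts are of imprinted genes only, and the share of all genes that passed in each alternative fit is not given. Where 1 group was left with fewer libraries they were assumed to vary like the others.

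Same-numbered libraries did not deviate together throughout: correlations of their deviations from the group means were 0.0666, 0.158 and -0.0831 between genotypes on day 2, -0.00566, -0.0252 and -0.0119 on day 2.5, 0.327, 0.408 and 0.0225 between days in control and 0.169, -0.019 and 0.0768 without Trim33. The replicate number was therefore not used as a pairing. With a replicate block, 8 imprinted genes rose over time in control, 18 rose over time without Trim33 and 5 had a positive interaction. The share of all genes in that fit is not given either. Of the calls made without the block, the interaction of Cd81 (edgeR adjusted p = 0.0523) and the day 2 fall of Ube3a (0.0769) did not pass with it.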
